A study of Felis catus with 2 samples.

Results

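Solute carriers of the families SLC1, SLC2, SLC3, SLC5, SLC6, SLC7, SLC16 and SLC38 were read out in RNA from the anterior eye of a normal and a glaucomatous cat. These families carry sugars, lactate, amino acids and related small molecules across cell membranes. Genes were chosen by name alone, as rows with a single gene name of 1 of these families, and for a repeated name the row with the higher mean was used. The rule took 77 of the 19181 single gene names in the table. It also took SLC2A4RG, a regulator of the glucose transporter gene SLC2A4, and SLC7A6OS, a neighbour of SLC7A6, which are not transporters, so 75 transporter genes and their subunits remained. SLC5A5 and SLC5A6, which carry iodide and vitamins, belong to these families although their substrates lie outside the 3 classes.

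The normal library came from a healthy cat, unrelated to the affected animal. The affected library came from a cat with primary congenital glaucoma from a colony founded by glaucomatous Siamese cats, in which the disease is recessive and is attributed to an insertion in LTBP2. Affected cats of the colony that were genotyped carried the insertion on both alleles, and the study describes the LTBP2 RNA of its affected library as mutated. Both cats were 2 months old. Polyadenylated RNA was taken from the iridocorneal angle, the tissue between iris and cornea where aqueous humour drains, as well as the ciliary body, with trabecular meshwork and sclera beside it. Each condition is 1 library, so replicate error is unknown, no difference could be tested, and every value describes these 2 libraries only.

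Levels are FPKM, the number of sequenced fragments of a locus scaled to exon length and to library size, which the authors calculated and which can be compared between genes because they are set per length. Low values at unnamed loci fell on whole multiples of the value of a single fragment, within 0.03, in 95.1% of 1526 loci in the normal and 92.5% of 1316 loci in the affected library. By these steps 1 FPKM stood for 70.9 fragments per kilobase in the normal library against 67.3 in the affected one. Intervals given below are 95% counting intervals under an assumed effective transcript length of 1 kilobase. They cover counting error only and say nothing of the variation between cats. Log2 ratios are log2 of (affected + 1) over (normal + 1), and a gene was called higher or lower when it differed at least 2-fold on that scale. Only genes that reached 1 FPKM in either library were compared, because the added 1 FPKM compresses lower values.

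Aqueous humour and the avascular lens and cornea depend on carriers in the ciliary epithelium, in blood vessel walls and in the lens itself for their sugars and amino acids. Cotransporters of the SLC1, SLC5, SLC6 and SLC38 families draw on the sodium gradient, whereas GLUT proteins of SLC2 let hexoses pass down their gradient. The SLC7 light chains exchange amino acids and reach the cell surface bound to a heavy chain of the SLC3 family. The lactate carriers of SLC16 move lactate with a proton, and need a partner such as basigin to reach the membrane.

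Of the 77 genes, 55 passed the minimum. Their levels ran from 0.594 to 196.4 FPKM in the normal library, with a median of 8.70, and from 0.765 to 307.9 FPKM in the affected library, with a median of 11.9. In the affected library 7 genes were at least 2-fold higher, among them SLC6A6, SLC6A20, SLC5A5, SLC1A5, SLC1A3 and SLC6A13. Another 5 were at least 2-fold lower, namely SLC7A5, SLC16A14, SLC38A5, SLC7A6 and SLC16A3. These are 12.7% and 9.09% of the genes compared, against 8.14% and 8.75% of all 16676 loci past the same minimum. The median log2 ratio was 0.18 for these 55 genes and −0.0047 for all loci, and 31 of the 55 genes lay above 0, or 56.4% against 49.7%. The share of lower genes was thus near that of all loci, and the share of higher genes was above it by a few genes. SLC2A4RG and SLC7A6OS were both within 2-fold. The counting interval of the ratio left out 1 for 27 genes on the higher and 19 on the lower side, and held it for the other 9, whose log2 ratios lay between −0.16 and 0.18. The same count was not made over all loci, so it shows nothing particular to these families. Among 178 genes of other SLC families past the minimum, 24 were higher and 10 were lower. Over the 12724 single names past the minimum 6.63% were higher and 8.46% were lower.

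Other call rules gave other counts. With a pseudocount of 0.1 the 55 genes included 11 higher and 6 lower genes, against 11.9% and 13% of all loci. With both libraries rescaled to the same sum 6 were higher and 6 lower, against 8.54% and 10.6% of all loci, and with the median of all loci set to 0 they were 8 and 5, against 8.21% and 8.65%. At a 4-fold threshold 3 were higher and 0 lower, against 1.68% and 1.79% of all loci. Among the 41 genes whose mean reached 5 FPKM the same 12 genes were called, against 7.62% higher and 6.46% lower among all loci of that level.

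**Figure D1:**
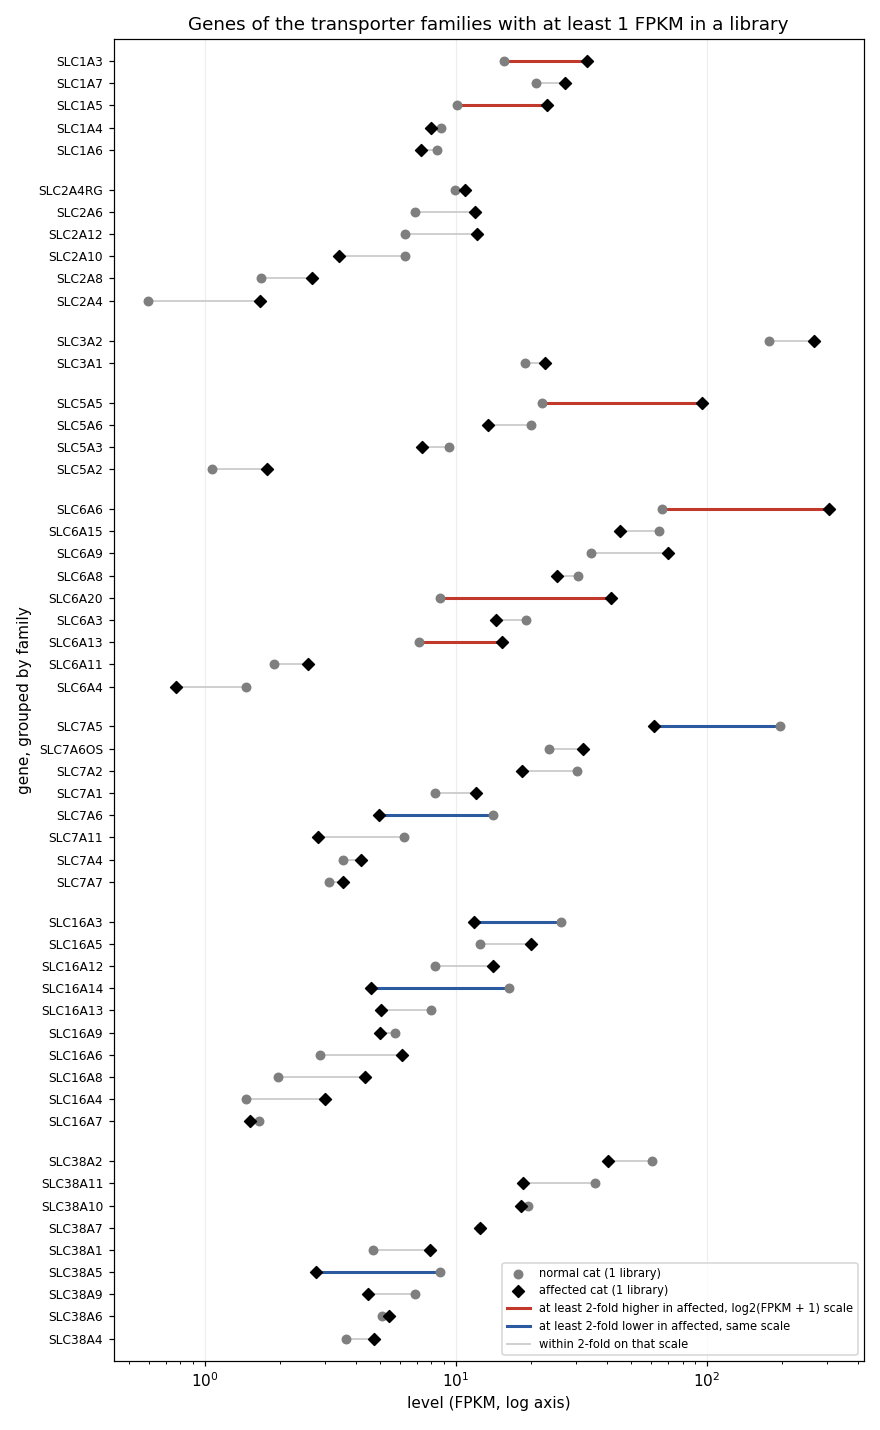
Level of 53 of the 55 genes past the minimum, in FPKM on a log axis, in the normal (grey circles) and the affected library (black diamonds), each a single library. Lines join the 2 values of a gene and are red or blue where they differ at least 2-fold on the log2(FPKM + 1) scale, and SLC6A6 and SLC7A5 span from 66.6 to 307.9 and from 196.4 to 61.8 FPKM.

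The other 22 genes stayed below 1 FPKM in both libraries, and the highest of them was SLC2A9, a urate carrier, with 0.858 FPKM in the normal cat against 0.902 in the affected cat. SLC2A2, SLC5A4, SLC5A12, SLC6A19 and SLC7A13 were listed at 0 in both libraries, and SLC5A7 and SLC5A8 in the affected library alone. GAPDH and LDHB, which all cells use, had the value 0 in these libraries too, and a 0 can therefore be a failed estimate as well as a missing transcript. Several of the low genes are best known from other organs, such as SLC6A19, a neutral amino acid carrier of gut and kidney, SLC2A2, the glucose carrier of liver, and SLC5A7, the choline carrier of nerve endings. SLC7A9 has a second row, with 0.0251 and 0.0265 FPKM, which was not used. SLC2A1, SLC2A3, SLC16A1, SLC1A1, SLC1A2 and SLC7A8 have no row under a single name and were not analysed here.

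The summed level of all 77 genes was 1140 FPKM in the normal cat against 1457 in the affected cat, or 0.176% and 0.216% of all FPKM. The families contributed differently in each cat. SLC6 held 22.0% of that sum in the normal cat against 38.2% in the affected cat, whereas SLC7 held 25.1% and 9.66%. Single genes made most of this exchange, since SLC6A6 alone went from 5.84% to 21.1% and SLC7A5 from 17.2% to 4.24%. Without SLC6A6 the SLC6 sum was 184.2 FPKM in the normal cat against 248.3 in the affected cat, and without SLC7A5 the SLC7 sum was 89.9 and 78.9 FPKM. SLC5 also stood higher, at 53.5 against 118.5 FPKM, and SLC5A5 supplied most of that. SLC38 was lower, at 157.1 FPKM in the normal cat against 114.9 in the affected cat, while SLC16 was nearly level at 99.6 and 93.9 FPKM.

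**Figure D2:**
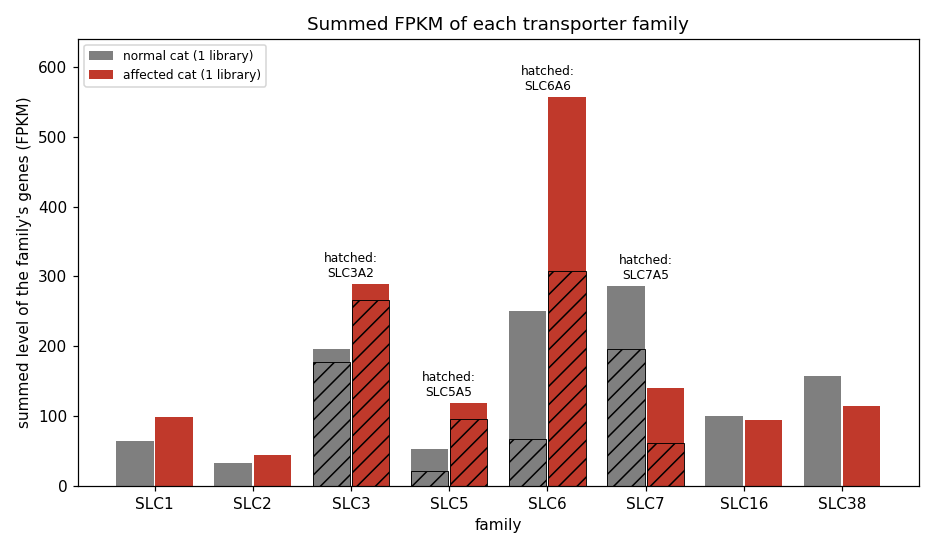
Summed FPKM of the genes of each family in the normal (grey) and the affected library (red), with no error bars because each bar is 1 library. Hatched parts are the leading gene of 4 families, and the SLC6 bar goes from 250.8 to 556.2 FPKM while the SLC7 bar goes from 286.3 to 140.7 FPKM.

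The taurine, GABA and creatine carriers of SLC6 included 1 of the 3 genes that passed 4-fold. SLC6A6 encodes the taurine transporter, which loads cells with an osmolyte and antioxidant that is abundant in retina and lens. Its locus lies on chromosome A2 of felCat5 from 54302318 to 54392011. It had 66.6 FPKM in the normal cat against 307.9 in the affected cat, and had rank 3 of the 77 genes in the normal and rank 1 in the affected library. The affected level was 4.62 times the normal level (counting interval 4.48 to 4.77). Its log2 ratio of 2.19 exceeded those of 98.8% of all loci past the minimum.

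Other carriers of this group went different ways. SLC6A13, which carries GABA and taurine, had 7.13 and 15.3 FPKM, 2.15 times as much, and its log2 ratio went from just over the threshold to 0.99, just under it, when both libraries were rescaled to the same sum. SLC6A11, a GABA carrier of astrocytes, was low at 1.88 and 2.58 FPKM, and SLC6A12, the betaine carrier of osmotic defence in kidney, stayed under the minimum with 0.116 and 0.332 FPKM. The creatine carrier SLC6A8 ran the other way and was nearly level, with 30.8 FPKM in the normal cat against 25.3 in the affected cat. The SLC6A8 locus is listed with a long span that 9 other named rows overlap. SLC6A13 lies beside SLC6A12 on chromosome B4 from 36898972 to 36933007, and of these neighbours the first was called and the other was under the minimum.

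The glycine and proline carriers were next. SLC6A20, a sodium-coupled carrier of proline and other imino acids, lies on chromosome A2 from 15156503 to 15187250. It had 8.68 FPKM in the normal cat against 41.7 in the affected cat, 4.80 times as much (counting interval 4.40 to 5.23), with a log2 ratio of 2.14. SLC6A9, the glycine transporter GlyT1, had 34.5 and 70.0 FPKM. That is 2.03 times the normal level, but its log2 ratio of 0.9992 fell just short of the threshold on the log2(FPKM + 1) scale, the nearest of all genes. SLC6A7, the proline carrier of brain synapses, stayed below the minimum.

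The other SLC6 genes were level or somewhat lower. SLC6A15, which carries branched-chain amino acids and proline, had rank 4 of the 77 genes in the normal library with 64.7 FPKM and had 45.3 FPKM in the affected library. SLC6A3, the dopamine transporter, had 19.1 FPKM in the normal cat against 14.4 in the affected cat, levels that exceeded 72.9% and 64.7% of all loci past the minimum. The serotonin transporter SLC6A4 was close to the minimum, with 1.46 and 0.765 FPKM, and the noradrenaline transporter SLC6A2 was below it with 0.153 and 0.277 FPKM. SLC6A14, SLC6A16 and SLC6A18 were also below it.

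Carriers of glutamate and of neutral amino acids in SLC1 were all past the minimum. SLC1A3, the glial glutamate transporter GLAST, had 15.5 FPKM in the normal cat against 33.3 in the affected cat, a log2 ratio of 1.05, and lies on chromosome A1 from 209971520 to 210051658. SLC1A7, a glutamate transporter known from retina, had 20.8 and 27.3 FPKM, and SLC1A6, the one of cerebellar Purkinje cells, had 8.42 and 7.28 FPKM. SLC1A5, which exchanges glutamine for other neutral amino acids, had 10.1 FPKM in the normal cat against 23.2 in the affected cat, 2.28 times as much (counting interval 2.09 to 2.50), a log2 ratio of 1.12. Its close relative SLC1A4 had 8.70 and 7.99 FPKM, a difference whose counting interval of 0.818 to 1.03 times includes no change. The SLC1A5 locus is listed on chromosome E2 from 9273400 to 9501225, a long span that 4 other named rows overlap.

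Genes that make, pack or break down glutamate and GABA were listed to set beside these carriers. Of 7 genes past the minimum, 3 were higher and none was lower, with a median log2 ratio of 0.78. GLUL, which turns glutamate into glutamine in glia, had 346.6 FPKM in the normal cat against 1981 in the affected cat, with a log2 ratio of 2.51. SLC17A7, which fills synaptic vesicles with glutamate, had 6.43 and 61.2 FPKM, and GAD1, which makes GABA, had 1.98 and 6.57 FPKM. ABAT, which breaks down GABA, had a log2 ratio of −0.70. The table lists no single-name row for GLUD1, and SLC17A6 and SLC17A8 did not reach the minimum.

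Most photoreceptor and ciliary epithelium markers stood higher in the affected library as well. Of 8 photoreceptor genes past the minimum 7 were higher, and the summed level of the list was 409.0 FPKM in the normal cat against 1661 in the affected cat, while GNAT1 and NRL have no row under a single name. Of 10 ciliary epithelium genes 6 were higher and 1, CA2, was lower, with sums of 2242 and 6494 FPKM, and all but AQP4 and CA4 were clearly detected in both libraries. The Muller glia list summed to 2461 and 3600 FPKM, and to 2115 and 1619 FPKM without GLUL. In it SLC1A3 and GLUL are themselves the 2 genes that were higher, while RLBP1 had 184.7 and 260.8 FPKM, KCNJ10 0.929 and 2.12 FPKM, VIM 1647 and 1105 FPKM and DKK3 266.4 and 217.2 FPKM. In bulk tissue, more or fewer cells of a type and more or less RNA per cell cannot be told apart. The part of these tissues in the levels of SLC6A6, SLC6A20 and SLC1A3 was not tested.

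**Figure D3:**
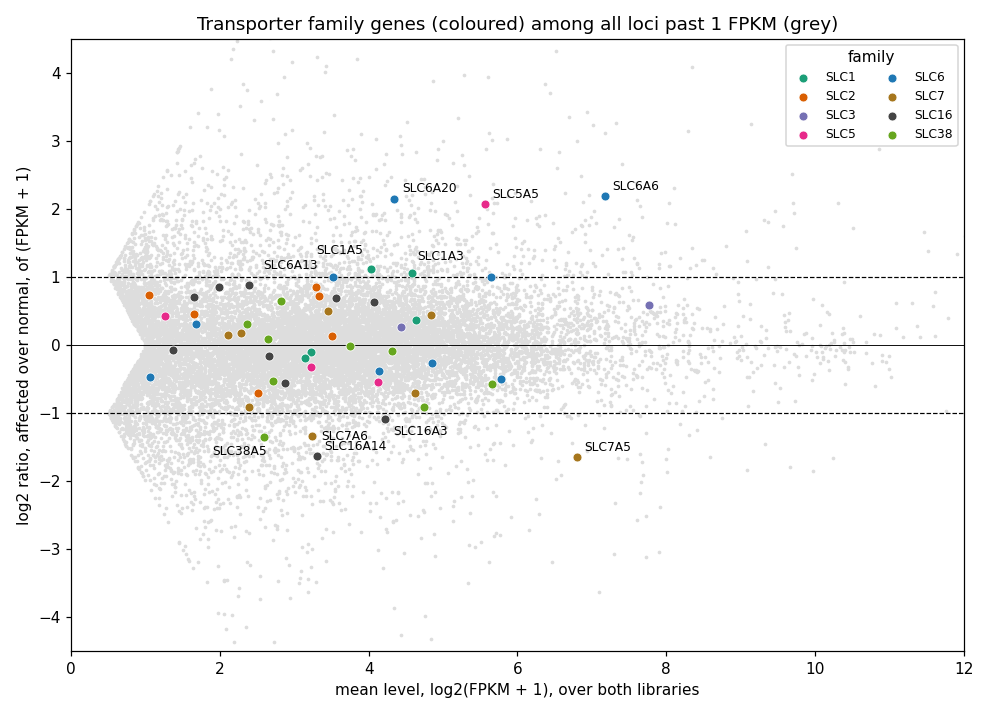
Log2 ratio, affected over normal, of (FPKM + 1) against the mean log2(FPKM + 1) of both libraries for all 16676 loci past the minimum (grey) and 53 of the 55 genes of the transporter families (coloured by family), with dashed lines at 2-fold. Some 68 loci lie outside the axes, and SLC6A20, SLC5A5 and SLC6A6 stand apart near a log2 ratio of 2 while SLC7A5 and SLC16A14 are the lowest at −1.65 and −1.63, in an order that turns with a pseudocount of 0.1 or with rescaled sums.

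Of the SLC7 light chains 4 were past the minimum and 2 of them, SLC7A5 and SLC7A6, were lower, while both SLC3 heavy chains were within 2-fold. Over all loci 8.75% were lower. SLC3A2, the heavy chain that carries several SLC7 light chains to the membrane, was the second highest of the 77 genes in both libraries. It had 177.5 FPKM in the normal cat against 266.7 in the affected cat, 1.5 times as much (counting interval 1.47 to 1.54). SLC7A5, the light chain LAT1, pairs with SLC3A2 and imports leucine and other large neutral amino acids. Its locus lies on chromosome E2 from 62122742 to 62155812.

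SLC7A5 was the highest of all 77 genes in the normal library with 196.4 FPKM, and had 61.8 FPKM in the affected library, where its rank was 5. The normal level was 3.18 times the affected one (counting interval 3.07 to 3.29), and the log2 ratio was −1.65. For each FPKM of SLC3A2 there were 1.11 FPKM of SLC7A5 in the normal against 0.232 FPKM in the affected cat. With all 5 light chains that pair with SLC3A2 and were listed (SLC7A5, SLC7A6, SLC7A7, SLC7A10 and SLC7A11) the ratio was 1.24 in the normal against 0.276 in the affected cat. The ratio covers these 5 light chains alone, since SLC7A8, which also pairs with SLC3A2, was not analysed here.

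The remaining light chains were low beside SLC7A5. SLC7A6, which exchanges cationic for neutral amino acids, had 14.0 FPKM in the normal cat against 4.96 in the affected cat, a log2 ratio of −1.34. SLC7A6OS is listed on the same interval of chromosome E2, from 45856660 to 45896147, and had 23.5 and 32.2 FPKM, the opposite direction. The library kit used does not mark strand, so reads from any stretch that both genes share cannot be told apart. SLC7A11, the cystine and glutamate exchanger that feeds glutathione synthesis, had 6.22 and 2.83 FPKM. Its log2 ratio of −0.91 was the nearest to the lower threshold without reaching it. SLC7A7, the relative of SLC7A6 in leukocytes and gut, had 3.13 and 3.54 FPKM. SLC7A10, a carrier of small neutral amino acids, stayed below the minimum.

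The other heavy chain, SLC3A1, had 18.8 FPKM in the normal cat against 22.7 in the affected cat. Its known light chains are SLC7A9, the renal cystine carrier, and SLC7A13. SLC7A9 was listed at 0.134 and 0.0118 FPKM and SLC7A13 at 0 in both, a value that may be a failed estimate. Another named row overlaps the SLC3A1 locus.

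Carriers of cationic amino acids that were past the minimum were all within 2-fold. SLC7A2, an arginine carrier, had 30.4 FPKM in the normal cat against 18.3 in the affected cat, and SLC7A1, the widely expressed arginine carrier, had 8.25 and 12.1 FPKM. Their log2 ratios of −0.71 and 0.50 point in opposite directions. SLC7A4, a relative whose listed span 8 other named rows overlap, had 3.56 and 4.17 FPKM, and SLC7A14 was below the minimum.

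All 9 SLC38 genes were past the minimum, and 1 of them was called lower, or 11.1% against 8.75% of all loci. SLC38A5, a sodium-coupled carrier of glutamine, had 8.68 FPKM in the normal cat against 2.78 in the affected cat, a log2 ratio of −1.36, and lies on chromosome X from 41553785 to 41563194. The normal level was 3.12 times the affected one (counting interval 2.65 to 3.68). SLC38A2, the inducible carrier of small neutral amino acids, was the highest of the family in both libraries with 60.5 and 40.5 FPKM. SLC38A11 followed in the normal library with 35.7 FPKM and had 18.6 FPKM in the affected library, a log2 ratio of −0.91. SLC38A1, a glutamine carrier of neurons, lies 48.7 kb from SLC38A2 on chromosome B4 and stood higher in the affected library, with 4.67 against 7.87 FPKM. SLC38A4 had 3.64 and 4.74 FPKM.

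For SLC38A7, SLC38A10 and SLC38A6 the counting interval of the ratio included no change. SLC38A7, a lysosomal glutamine carrier, had 12.5 FPKM in the normal cat against 12.4 in the affected cat. SLC38A10 had 19.4 and 18.2 FPKM, and SLC38A6 had 5.07 and 5.42 FPKM. SLC38A9, the lysosomal arginine sensor of the growth regulator mTORC1, had 6.86 and 4.45 FPKM.

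Genes of the amino acid response, which is switched on through ATF4 when amino acids run short, went both ways. Of 12 genes, all past the minimum, 3 were higher and 2 were lower. DDIT3 had 11.5 FPKM in the normal cat against 46.9 in the affected cat, ASNS, which makes asparagine, had 5.42 and 15.0 FPKM, and TRIB3 had 0.408 and 2.88 FPKM. The lower genes, PHGDH with 82.7 and 28.0 FPKM and PSAT1 with 144.4 and 69.3 FPKM, encode the first steps of serine synthesis. ATF4 itself had 230.1 and 287.2 FPKM.

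Corneal epithelium and cell division markers, and some vessel markers, were lower in the affected library, as SLC7A5, SLC7A6 and SLC38A5 were. Of 8 endothelial genes past the minimum 4 were lower and none was higher, with sums of 139.7 FPKM in the normal cat against 64.5 in the affected cat, and none of these rows was at 0. CLDN5, a tight junction gene of vessels, had 32.9 and 7.35 FPKM, whereas FLT1, a receptor for vascular growth factor, had 9.35 and 16.9 FPKM. All 8 corneal and conjunctival epithelium genes past it were lower, with sums of 593.0 and 24.5 FPKM. All 6 cell division genes past the minimum were lower, with sums of 83.4 and 10.9 FPKM. Their part in the lower levels of these carriers was not tested.

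Among facilitative hexose carriers 5 genes were past the minimum and none was called, where 8.14% of all loci were higher and 8.75% lower. SLC2A12 had 6.29 FPKM in the normal cat against 12.2 in the affected cat, a log2 ratio of 0.85. SLC2A6, found in lysosomes, had 6.88 and 11.9 FPKM, and SLC2A8, also an intracellular carrier, had 1.68 and 2.68 FPKM. SLC2A10, mutated in arterial tortuosity syndrome, went the other way with 6.26 and 3.44 FPKM. SLC2A4, the insulin-responsive carrier of muscle and fat, was low at 0.594 and 1.66 FPKM, and its log2 ratio of 0.74 became 1.34 with a pseudocount of 0.1. Its locus is listed with a span that 43 other named rows overlap. SLC2A11 was below the minimum, and SLC2A4RG, the regulator, had 9.89 and 10.9 FPKM.

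Of the sodium-coupled sugar carriers only SLC5A2, the renal glucose carrier SGLT2, was past the minimum, with 1.07 FPKM in the normal cat against 1.77 in the affected cat. SLC5A9 and SLC5A10 were below it. SLC5A3, which loads cells with the osmolyte myo-inositol, had 9.41 and 7.34 FPKM, and the second inositol carrier, SLC5A11, was below the minimum. The enzymes that make myo-inositol were all within 2-fold, ISYNA1 with 22.1 and 19.2 FPKM, IMPA1 with 14.5 and 10.7 FPKM and IMPA2 with 17.9 and 28.4 FPKM. In the list of myo-inositol and ascorbate genes the ascorbate carrier SLC23A2 had 56.9 FPKM in the normal cat against 266.9 in the affected cat, a log2 ratio of 2.21, and was the only 1 of 4 genes past the minimum to be called.

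SLC5A5 was the only gene outside SLC6 to pass 4-fold. It encodes the sodium/iodide symporter, best known from the thyroid gland, and lies on chromosome A2 from 12903597 to 12919954. It had 22.0 FPKM in the normal cat against 95.8 in the affected cat, 4.36 times as much (counting interval 4.13 to 4.61), and went from rank 12 to rank 3 of the 77 genes. The log2 ratio of 2.08 exceeded those of 98.5% of all loci past the minimum. SLC5A6, a vitamin carrier for biotin and pantothenate, had 20.0 and 13.4 FPKM.

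Lactate carriers of SLC16 went in different directions. SLC16A3, the lactate exporter MCT4 of strongly glycolytic cells, had 26.2 FPKM in the normal cat against 11.8 in the affected cat, a log2 ratio of −1.08. SLC16A8, the lactate carrier of the retinal pigment epithelium, was low but stood higher in the affected library with 1.96 against 4.33 FPKM, and a pseudocount of 0.1 took its log2 ratio from 0.85 to 1.11. SLC16A7, a high-affinity lactate and pyruvate carrier, had 1.64 and 1.52 FPKM. The sodium-coupled lactate carriers SLC5A8 and SLC5A12 were listed near or at 0 in both libraries. SLC16A3 is listed on chromosome E1 from 61989447 to 62169696, a long span that another named row overlaps. Of the 6 retinal pigment epithelium genes 1 was lower, RPE65 with 53.2 and 26.1 FPKM, and none was higher, with sums of 618.9 and 1067 FPKM. TTR, which the ciliary epithelium also makes, turned the direction of that sum, which was 114.3 FPKM in the normal cat against 76.6 in the affected cat without it. The part of this tissue in the level of SLC16A8 was not tested.

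The other SLC16 genes included a second strong difference. SLC16A14, whose substrate is little known, had 16.4 FPKM in the normal cat against 4.59 in the affected cat, and the normal level was 3.56 times the affected one (counting interval 3.14 to 4.04). It lies on chromosome C1 from 212251938 to 212278729. Its log2 ratio of −1.63 was close to that of SLC7A5, and with a pseudocount of 0.1 it was −1.81 against −1.67 and so the lower of both. SLC16A5 had 12.5 and 19.9 FPKM, and SLC16A12, a creatine carrier linked to cataract, had 8.30 and 14.0 FPKM. SLC16A9, a carnitine carrier, had 5.71 and 4.99 FPKM.

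Further SLC16 genes past the minimum were SLC16A6 with 2.86 and 6.13 FPKM, SLC16A4 with 1.46 and 3.0 FPKM and SLC16A13 with 7.93 and 5.04 FPKM. SLC16A11 is listed on the same interval of chromosome E1 as SLC16A13 and was below the minimum. For SLC16A4, SLC16A6, SLC16A8 and SLC2A4 the affected level was over 2 times the normal level, yet the log2 ratio stayed under the threshold because the added 1 FPKM weighs on low genes.

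Partners of the lactate carriers and enzymes of glycolysis were set beside them. Lactate dehydrogenase, which makes lactate, could not be compared, since LDHA has no row under a single name and LDHB was listed at 0 in both libraries. EMB, a chaperone of these carriers, had 4.51 FPKM in the normal cat against 20.8 in the affected cat, with a log2 ratio of 1.98. BSG, which encodes basigin, was far more abundant and nearly level at 388.9 and 480.4 FPKM, as was NPTN at 113.5 and 140.2 FPKM. Of 10 glycolytic genes past the minimum 1 was higher and none was lower. HK1, which traps glucose in the cell, had 18.0 and 37.5 FPKM, a log2 ratio of 1.02, while HK2 had 5.98 and 6.68 FPKM. GPI had 602.2 and 625.6 FPKM, ALDOA 450.4 and 602.5 FPKM, and ENO1 461.3 and 260.1 FPKM. The median log2 ratio of the list was 0.28, with 8 of the 10 genes above 0.

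The lens and 4 further cell type lists were also examined. Of 11 lens genes 6 were higher and 2 were lower, with sums of 54982 FPKM in the normal cat against 46015 in the affected cat, and 1 of the lower genes, CRYAA, had 22978 FPKM in the normal cat and was listed at 0 in the affected cat. That 0 may be a failed estimate, and without CRYAA the sum was 32004 FPKM in the normal cat against 46015 in the affected cat. BFSP1, a lens fibre filament gene, had 38.4 and 315.5 FPKM. Of 7 macrophage and leukocyte genes past the minimum 1 was higher, with sums of 93.3 and 105.2 FPKM. Of 7 nerve and Schwann cell genes 1 was higher and 2 were lower, with sums of 201.4 and 166.3 FPKM. No red blood cell gene reached the minimum, and of the skeletal muscle genes CKM alone did, with 8.40 and 33.0 FPKM. The part of the lens in the level of SLC6A6 was not tested.

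**Figure D4:**
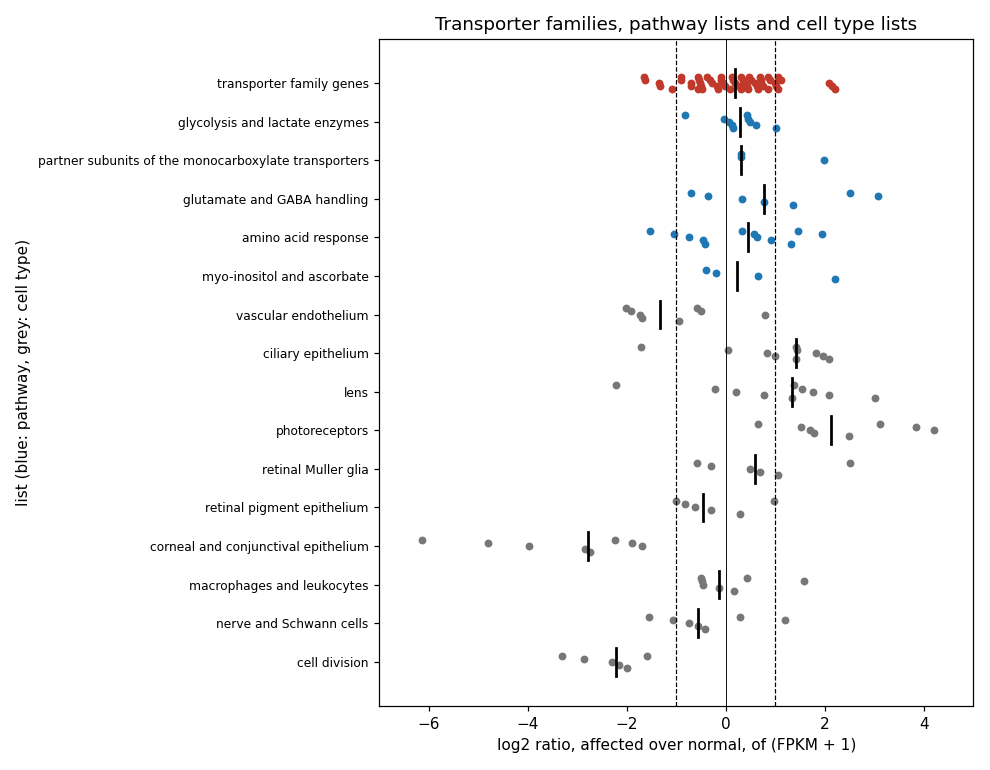
Log2 ratio, affected over normal, of (FPKM + 1) for the 55 genes of the transporter families (red), the genes of 5 pathway lists (blue) and of 10 cell type lists (grey), 1 point per gene past the minimum, with the median as a black bar and dashed lines at 2-fold. Lists with under 3 such genes are left out and 1 lens gene lies left of the axis, and the transporter families centre near 0 while the corneal epithelium and cell division points all lie left of the lower line.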

How the data were processed

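Polyadenylated RNA of 2 libraries, 1 per condition, was analysed. The authors deposited FPKM for 32065 loci from Cufflinks 2.1.1, after aligning reads with TopHat 2.0.9 to the felCat5 build with predicted Ensembl genes. Scaling between libraries and filters are not stated in the sources used here. Because the values are not counts and each condition is 1 library, neither a count model nor any other test was run. Groups came from the disease state in the labels. Names were matched exactly, and 3 rows that join a name of these families to another gene were left out. Start positions were taken as counted from 0, since the lowest is 0, and are given from 1. The number of fragments behind 1 FPKM was fitted to the steps between low values and tested on simulated data. Log2 ratios used a pseudocount of 1 FPKM, a minimum of 1 FPKM in at least 1 library and no rescaling. Genes named by rule were those at least 2-fold different and those whose mean reached 10 FPKM, and other members are given by value for completeness. A few genes that enter the counts and sums are not reported here by name. The members and the pathway and cell type lists were chosen with earlier results of these data known, and the grouping by role was made after the values were seen. Alternatives were another pseudocount, 2 rescalings, other minimums, a 4-fold threshold, summed repeated rows, and removal of names that are not transporters or of rows at 0 in 1 library. Sums of 3 cell type lists without 1 gene were added after seeing the data. Calculations used pandas 2.3.3 and numpy 2.4.6 under Python 3.11.15, and plots used matplotlib 3.10.9.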

Additional observations from a re-analysis of the deposited data

How the results depend on the processing

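The 7 higher and 5 lower genes were the same genes at a mean level of 5 FPKM or more. Some other settings could not change the calls. Dropping the minimum could add no gene, since a 2-fold call on the log2(FPKM + 1) scale needs at least 1 FPKM in a library. Summing repeated rows, or removing SLC2A4RG and SLC7A6OS or rows at 0 in exactly 1 library, touched no called gene. With a pseudocount of 0.1 there were 11 higher genes (SLC6A9, SLC16A6, SLC16A8 and SLC2A4 were added) and 6 lower genes, against 11.9% and 13% of all loci. A 4-fold threshold left 3 higher genes (SLC6A6, SLC6A20 and SLC5A5) and 0 lower genes, against 1.68% and 1.79% of all loci. Rescaling both libraries to the same sum gave 6 and 6, without SLC6A13 and with SLC7A11, against 8.54% and 10.6% of all loci. Setting the median of all loci to 0 added SLC6A9 for 8 and 5, against 8.21% and 8.65%. The median log2 ratio of 0.18 became 0 with no minimum, where 22 low genes enter, and 0.081 at a mean level of 5 FPKM or more, where low genes leave. None of the 55 genes changed sign under the other pseudocount or either rescaling. No paired analysis was possible because only 1 cat stands for each condition, and leaving out a library was not possible either.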

Other observations

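Rows that join a carrier to another gene could not be assigned to it. The row that joins GPR157 and SLC2A5, the fructose carrier, had 3.86 FPKM in the normal cat against 3.78 in the affected cat. The row that joins MBTPS1 and SLC38A8 had 80.8 and 53.6 FPKM.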
